A study of Mus musculus with 24 samples.

Results

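The genes described here are 40 genes that bring fatty acids into heart muscle cells, oxidise them or govern that choice of fuel, of 34844 gene names on the array. They were chosen by name: a probe counts when the scanner annotation gives it 1 of the 40 gene names, and the brightest probe measured above background stands for the gene. All 40 genes were tested at both times, 26 of them through their only probe and 14 with several to choose from. Their transcripts were measured in isolated mouse cardiomyocytes with one-colour Agilent arrays, 24 arrays in 8 groups of 3. At each time the groups were Top2b-/- mice given doxorubicin, Top2b-/- mice given PBS, wild-type mice given doxorubicin and wild-type mice given PBS, and the hearts were taken 16 h or 72 h after the intraperitoneal injection of doxorubicin at 25 mg/kg or of PBS. Top2b encodes DNA topoisomerase II beta, a target of doxorubicin. Its deletion was conditional, in cardiomyocytes, and the sources used here do not name the Cre driver. All mice had a 129SvEv/C57BL/6 background and were 6 weeks old, and live cardiomyocytes were freed from the heart by Langendorff perfusion. A level below is the log2 signal of a gene minus that of the array's 75th percentile, and a difference is a difference of such levels, with its standard error (SE) from limma. A gene was called at an adjusted p under 0.05 in limma's moderated test, adjusted by the Benjamini-Hochberg method over all genes tested.

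The heart draws most of its energy from fatty acids. Lipoprotein lipase frees them from circulating triglyceride, Cd36 and fatty acid transport proteins bring them in, acyl-CoA synthetases activate them, and the carnitine palmitoyltransferases pass them into mitochondria. There acyl-CoA dehydrogenases, hydratases, hydroxyacyl-CoA dehydrogenases and thiolases shorten the chain by turns, and the electron transfer flavoprotein hands electrons on to the respiratory chain. Malonyl-CoA, made by acetyl-CoA carboxylases and removed by malonyl-CoA decarboxylase, holds back the first palmitoyltransferase. The nuclear receptors PPAR alpha and ERR alpha, with the PGC-1 coactivators, are known to drive many of these genes in heart.

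Some features of the arrays bear on what follows. The Top2b probe lay between 2.54 and 3.34 on the 6 Top2b-/- arrays of 16 h, against 4.03 to 4.39 on the 6 wild-type arrays, and between 2.13 and 3.08 in Top2b-/- cells against 3.25 to 3.65 in wild-type cells at 72 h. These values follow the sample titles, from which genotype was taken, while another genotype label contradicts the title on 4 arrays of 16 h. The labels call all mice male, but on 7 of 24 arrays Ddx3y, a Y-linked gene, was well above background. At 16 h these were 1 of 3 arrays of the Top2b-/- doxorubicin group, 0 of 3 of the Top2b-/- PBS group, 1 of 3 of the wild-type doxorubicin group and 3 of 3 of the wild-type PBS group. At 72 h they were 1 of 3 arrays in each PBS group and 0 of 3 in each doxorubicin group. Under PBS at 16 h, genotype and these transcripts therefore cannot be told apart within the pair of groups. Values with them as a covariate over all 4 groups stand beside that comparison. Within groups of 16 h that covariate varied only in the doxorubicin groups, where replicate 1 alone carried the transcripts. Its effect therefore cannot be told apart from that of replicate 1 in these groups. Between the PBS groups of 16 h the X-linked gene Xist ran the other way. Each of its probes was well above background on 3 of 3 Top2b-/- arrays and 0 of 3 wild-type arrays. One ran from -2.21 to -1.95 in Top2b-/- cells and from -6.03 to -5.57 in wild-type cells. Ddx3y alone set which arrays count as having Y-linked transcripts. Another Y-linked gene, Eif2s3y, was flagged well above background elsewhere too, as on 3 of 3 Top2b-/- doxorubicin arrays of 16 h (-3.08 to 3.05). Under PBS at 16 h Eif2s3y ran from -5.25 to -3.37 in Top2b-/- cells and from 3.88 to 3.97 in wild-type cells. The sex of the mice was not tested otherwise. The wild-type doxorubicin arrays of 16 h correlated least among themselves, at 0.960 to 0.979 against 0.991 to 0.995 in the other groups of 16 h. Each group's correlations covered the probes well above background on all 3 of its arrays. The members' results that rest on replicate 1 of the wild-type doxorubicin group are given without it too. All 10 cardiomyocyte markers were measured, while the adipocyte markers Adipoq, Plin1, Cidec and Lep were not above background in any group. The labels do not tie arrays to separate animals, and p-values therefore cover no more than the spread among these samples, which may be technical.

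Of the 6 comparisons of a pair of groups, the one between genotypes under PBS at 16 h called the most members, 2 higher and 9 lower in Top2b-/- cells. Doxorubicin in wild-type cells at 16 h called 2 higher and 2 lower, the genotypes under PBS at 72 h differed for 2, and the other comparisons called none. Over all 18750 genes of 16 h, 1260 were higher and 1077 lower between genotypes, and 2550 higher and 2674 lower with doxorubicin in wild-type cells. Between genotypes at 72 h, 207 of 19669 genes were higher and 211 lower. The members called between genotypes at 16 h became 3 with slide as a block and 4 with the Y-linked covariate. The doxorubicin comparison of a genotype and the genotype comparison share that genotype's PBS arrays, so their values are not independent. The heat map of all members shows these calls.

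**Figure D1:**
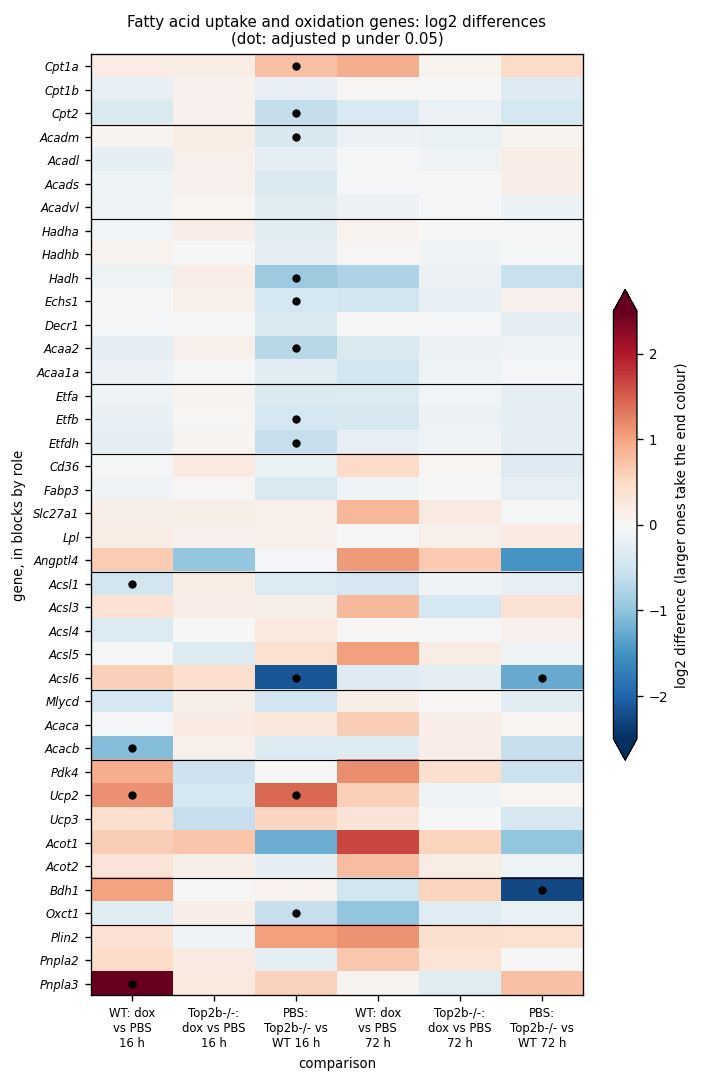
Log2 difference of each of the 40 genes (down the page, in blocks by role) in 6 comparisons (across), with a black dot where the adjusted p was under 0.05 and colours ending at -2.5 and 2.5. The comparison of Top2b-/- against wild type under PBS at 16 h holds 11 dots, while both comparisons of doxorubicin in Top2b-/- cells hold 0.

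Doxorubicin in wild-type cells at 16 h called few of the genes. Pnpla3 and Ucp2 rose and Acacb and Acsl1 fell, 4 of 40 or 10.0% of the members, against 27.9% of the 18750 genes tested (13.6% higher and 14.3% lower). The members' median difference was -0.04, against -0.03 over all genes. On 3 members the doxorubicin arrays lay wholly above and on 3 wholly below the PBS arrays, 7.5% each way, against 18.0% and 18.7% of all genes. Since the arrays hold whole cell preparations, fewer cells of a type and less RNA per cell cannot be told apart here or below.

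Pnpla3 encodes a lipid droplet protein of the patatin-like family, known in mouse liver for its rise on feeding. Its level was 3.44, -0.66 and 1.12 on the wild-type doxorubicin arrays, against -3.06, -2.41 and -2.44 on the wild-type PBS arrays. All doxorubicin arrays lay above all PBS arrays, and replicate 1 lay far above the others. The mean was 1.30 ± 2.06 with doxorubicin and -2.64 ± 0.37 with PBS (SD, n = 3 each), a difference of 3.94 ± 0.77 (SE), adjusted p = 0.00417, or 15.3-fold. That SE takes the spread as equal over the 4 groups of 16 h. The SD was 0.40 in the Top2b-/- doxorubicin group and 0.20 in the Top2b-/- PBS group, far below that with doxorubicin in wild-type cells. Without replicate 1 of the wild-type doxorubicin group the difference was 2.87 (adjusted p = 0.00182). Another Pnpla3 probe, which lies further along the gene, gave 1.44 ± 1.27 (SE, adjusted p = 0.434 over all probes), so the rise was called by the brighter probe alone. Averaging both probes left Pnpla3 uncalled. The first 30 bases of each are shown since the probes differ, the brighter at chr15:84016440-84016499 and the other at chr15:84019823-84019882 (mm9, plus strand, from the scanner annotation).
Pnpla3 brighter probe: tatccagtggctacaatgggcgacatccca
Pnpla3 other probe: gcaaactagtggaacagcagaaggattgaa

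Ucp2, a mitochondrial carrier of the uncoupling protein family found in many tissues, was 2.08, 1.09 and 1.02 with doxorubicin and 0.56, 0.34 and -0.12 with PBS in wild-type cells at 16 h. The groups did not overlap, and the difference was 1.14 ± 0.29 (SE), adjusted p = 0.0155. Acacb is the acetyl-CoA carboxylase at the outer mitochondrial membrane, whose malonyl-CoA restrains fatty acid entry. It was 4.54, 4.27 and 5.21 with doxorubicin and 5.75, 5.69 and 5.84 with PBS, every doxorubicin array below every PBS array. Acacb fell to 0.472 times its PBS level, a difference of -1.08 ± 0.20 (SE), adjusted p = 0.00335. Acsl1, the main long-chain acyl-CoA synthetase of heart, was 7.84, 7.40 and 7.62 with doxorubicin and 7.98, 8.02 and 8.26 with PBS, again without overlap. Its fall was -0.47 ± 0.16 (SE), adjusted p = 0.0495, and it was not called with slide as a block (adjusted p = 0.072) or with Y-linked transcripts as a covariate (adjusted p = 0.0916).

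Leaving out replicate 3 of the wild-type PBS group left Pnpla3 and Acacb as the 2 calls. Leaving out replicate 1 of the wild-type doxorubicin group gave 10 calls, 5 in each direction, against 31.7% of all genes. Bdh1 (1.51, adjusted p = 0.00089), Cpt1a (0.45, adjusted p = 0.00919) and Acsl3 (0.70, adjusted p = 0.0274) then joined the higher genes. Oxct1 (-0.45, adjusted p = 0.0231), Acsl4 (-0.55, adjusted p = 0.0394) and Cpt2 (-0.46, adjusted p = 0.0395) joined the lower ones. These pertain to ketone body use (Bdh1, Oxct1), fatty acid activation (Acsl3, Acsl4) and mitochondrial entry (Cpt1a, Cpt2).

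In Top2b-/- cells doxorubicin called 0 of the 40 members at 16 h, and limma called 0 of 18750 genes (0.0%), with 797 genes (4.25%) at an unadjusted p under 0.05, 0 of them members. The members' median difference was 0.12, against 0.01 over all genes. The groups did not overlap for 4 members above (Acaca, Cpt1a, Oxct1 and Pnpla2) and 2 below (Angptl4 and Ucp3), 10.0% and 5.0%, against 9.73% and 8.11% of all genes. Pnpla3 was -2.21, -1.79 and -1.41 with doxorubicin and -2.09, -2.24 and -1.84 with PBS, and the groups overlapped. Ucp2 was 1.21, 1.66 and 0.94 with doxorubicin and 1.64, 1.77 and 1.69 with PBS, with 1 doxorubicin array inside the PBS range and the others below it. Acacb was 5.41, 5.62 and 5.62 with doxorubicin and 5.51, 5.32 and 5.43 with PBS, and 1 doxorubicin array lay among the PBS arrays. Acsl1 was 7.64, 8.14 and 8.0 with doxorubicin and 7.80, 7.68 and 7.75 with PBS, with 2 doxorubicin arrays above all PBS arrays and 1 below them.

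**Figure D2:**
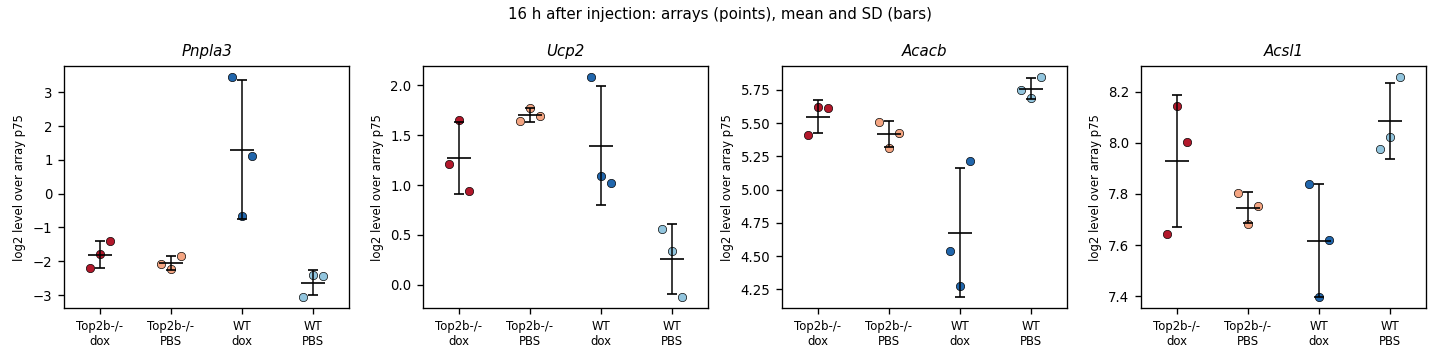
Levels (log2 over the array's 75th percentile) of Pnpla3, Ucp2, Acacb and Acsl1 on the 3 arrays of each of the 4 groups of 16 h, with mean and SD. In wild-type cells the doxorubicin arrays lie above the PBS arrays for Pnpla3 and Ucp2 and below them for Acacb and Acsl1, while in Top2b-/- cells the groups overlap for all 4 genes.

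The test of the difference between the responses at 16 h, Top2b-/- minus wild type, called 1 member in each direction, 5.0% of the members against 11.5% of all genes (6.25% higher and 5.26% lower). Acacb differed by 1.22 ± 0.29 (SE), adjusted p = 0.0238. Ucp2 differed by -1.57 ± 0.41 (SE), adjusted p = 0.0357. For Ucp2 the PBS level was higher in Top2b-/- cells, 1.70 ± 0.07, against 0.26 ± 0.35 in wild-type cells (SD, n = 3 each), and the doxorubicin means were 1.27 ± 0.36 in Top2b-/- cells and 1.40 ± 0.59 in wild-type cells. Pnpla3 differed by -3.68 ± 1.09 (SE), adjusted p = 0.0533, just outside the threshold. With slide as a block the count was 0, against 2.0% of all genes, and Acacb and Ucp2 had adjusted p = 0.137 and 0.173. The Top2b-/- doxorubicin arrays were all on another slide than the wild-type arrays. Leaving out 1 array gave 0 calls without replicate 3 of the wild-type PBS group, without replicate 3 of the Top2b-/- doxorubicin group or without any 1 array of the Top2b-/- PBS group. It gave 1 call without replicate 2 of the wild-type PBS group (Acacb) or of the Top2b-/- doxorubicin group (Ucp2). Without replicate 1 of the wild-type doxorubicin group it gave 6, as Bdh1, Pnpla3, Oxct1 and Acsl1 joined, and without replicate 3 of that group 4, as Mlycd and Pnpla3 joined.

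The genes around the members in wild-type cells at 16 h are read against the same 27.9% of all genes called. Of 15 transcriptional regulators of fatty acid oxidation, 2 were called higher and 8 lower with doxorubicin (66.7%), with a median of -0.62 against -0.03 over all genes. The deacetylase Sirt1 rose (0.97, adjusted p = 0.0013), and its mitochondrial relative Sirt3 fell (-0.62, adjusted p = 0.00233). Named after its value was seen, Ppara, which encodes PPAR alpha, was 2.76, 3.86 and 4.31 with doxorubicin and 4.61, 4.47 and 4.77 with PBS, every doxorubicin array lower (-0.97, adjusted p = 0.0405). Likewise chosen, Esrra, which encodes ERR alpha, fell by 0.93 (adjusted p = 0.0194) and the coactivator gene Ppargc1b by 2.77 (adjusted p = 0.023). Without replicate 1 of the doxorubicin group Ppara was at -0.53 (adjusted p = 0.0384), Esrra at -0.71 (adjusted p = 0.0495) and Ppargc1b at -1.57 (adjusted p = 0.00113). Each lost its call on leaving out certain other arrays, in 10, 2 and 3 of 12 cases, with an adjusted p of at most 0.114, 0.0662 and 0.07. Of 24 genes of other mitochondrial and peroxisomal oxidation, 1 was higher and 6 lower (29.2%), led by the peroxisomal Decr2 (-1.36, adjusted p = 2.58e-04) and Hsd17b4 (-0.67, adjusted p = 0.00243). Of 21 genes of other fatty acid handling, 1 was higher and 4 lower (23.8%), led by Lmf1 (-0.92, adjusted p = 0.00289), a maturation factor of lipoprotein lipase, and Plin5 (-1.79, adjusted p = 0.00318), the lipid droplet coat of oxidative tissue. Lipid synthesis had 1 higher and 5 lower of 15 (40%), led by Mlxipl (-1.38, adjusted p = 0.001) and Elovl5 (-0.77, adjusted p = 0.00159). AMPK and pyruvate dehydrogenase control had 1 higher and 4 lower of 13 (38.5%), led by Prkaa2 (-0.69, adjusted p = 0.00547) and Prkag1 (-0.51, adjusted p = 0.00803).

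For the response difference at 16 h the same lists are set against 11.5% of all genes called. Other oxidation had 4 of 24 (16.7%), all higher in the Top2b-/- response, led by Decr2 (1.58, adjusted p = 0.00255) and Ehhadh (1.25, adjusted p = 0.00943). Regulators had 2 in each direction of 15 (26.7%), led by Sirt1 (-1.04, adjusted p = 0.014) and Sirt3 (0.75, adjusted p = 0.0146). Other handling had 2 higher of 21 (9.52%), Lmf1 (1.09, adjusted p = 0.0174) and Plin5 (2.12, adjusted p = 0.0193). Lipid synthesis had 4 higher and 1 lower of 15 (33.3%), led by Elovl5 (0.89, adjusted p = 0.0122) and Acly (-0.81, adjusted p = 0.0208), and AMPK control 2 higher of 13 (15.4%), Prkaa2 (0.78, adjusted p = 0.0339) and Prkag1 (0.57, adjusted p = 0.0451). With slide as a block Decr2 alone of these 10 genes was called (adjusted p = 0.0352). Lmf1, Plin5, Acly, Prkaa2 and Prkag1 each lost the call on leaving out certain arrays, in 1, 4, 4, 9 and 10 of 12 cases.

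Some markers of other cells were called with doxorubicin in wild-type cells at 16 h, where 2550 of all 18750 genes were called higher and 2674 lower. Of 4 measured neutrophil markers of 7, 3 were called higher, with summed levels of 66.5 to 99.6 with doxorubicin and 80.7 to 82.8 with PBS, in multiples of the array's 75th percentile, and Retnlg, Mmp8 and Cxcr2 were not above background. Of 7 fibroblast markers 4 were called lower, with sums of 22 to 50.2 with doxorubicin and 24.2 to 35.8 with PBS. Endothelial markers had 1 higher and 2 lower of 9, with sums of 33.2 to 52.8 with doxorubicin and 32.0 to 45.3 with PBS. The sums overlapped between treatments for the neutrophil, fibroblast and endothelial markers. All 10 cardiomyocyte markers had negative differences, 1 of them called. The part of these cells in the results was not tested.

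Between genotypes under PBS at 16 h, most of the called members were enzymes that oxidise fatty acids inside mitochondria, and these were lower in Top2b-/- cells. Altogether 9 members were called lower, 22.5% against 5.74% of all genes, and 2 higher, 5.0% against 6.72%, where 12.5% of all genes were called in either direction. The lower ones were the synthetase Acsl6, the palmitoyltransferase Cpt2, the enzymes Acadm, Echs1, Hadh and Acaa2 of the chain-shortening cycle, the electron carriers Etfb and Etfdh and the ketone body enzyme Oxct1, and the higher ones were Cpt1a and Ucp2. The median of all members was -0.25, against -0.01 over all genes. On 21 members (52.5%) the Top2b-/- arrays lay wholly below the wild-type arrays, against 24.5% of all genes, and on 6 (15.0%) wholly above, against 24%.

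Acsl6, a long-chain acyl-CoA synthetase best known from brain, had the smallest p. Its level was -2.0, -2.92 and -1.95 on the Top2b-/- arrays, against 0.30, -0.48 and -0.26 on the wild-type arrays. The groups lay far apart, with means of -2.29 ± 0.55 in Top2b-/- cells and -0.15 ± 0.40 in wild-type cells (SD, n = 3 each). The difference was -2.14 ± 0.27 (SE), adjusted p = 0.00109, or 0.226 times the wild-type level. Cpt1a, the palmitoyltransferase that predominates in liver, was 2.16, 2.20 and 2.25 in Top2b-/- cells and 1.46, 1.49 and 1.46 in wild-type cells, and Cpt2, which rebuilds acyl-CoA at the inner membrane, 6.68, 6.53 and 6.67 in Top2b-/- cells and 7.18, 7.19 and 7.31 in wild-type cells. The Top2b-/- arrays lay wholly above for Cpt1a (difference 0.73 ± 0.19 SE, adjusted p = 0.0309) and wholly below for Cpt2 (difference -0.60 ± 0.14 SE, adjusted p = 0.024). A dimmer Cpt1a probe gave 0.09 ± 0.13 (SE), so that rise was called by the brighter probe alone.

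In the chain-shortening cycle, Acadm, the medium-chain acyl-CoA dehydrogenase, was 8.41, 8.28 and 8.39 in Top2b-/- cells and 8.71, 8.90 and 8.69 in wild-type cells (difference -0.41 ± 0.11 SE, adjusted p = 0.0364). Echs1, the short-chain enoyl-CoA hydratase, was 6.81, 6.65 and 6.69 in Top2b-/- cells and 7.08, 7.16 and 7.24 in wild-type cells (difference -0.44 ± 0.12 SE, adjusted p = 0.0357). Hadh, the hydroxyacyl-CoA dehydrogenase for shorter chains, was 6.32, 6.23 and 6.26 in Top2b-/- cells and 7.24, 7.08 and 7.21 in wild-type cells (difference -0.91 ± 0.16 SE, adjusted p = 0.00496), or 0.533 times the wild-type level. For these 3 genes no Top2b-/- array reached the lowest wild-type array. Acaa2, the mitochondrial thiolase that releases acetyl-CoA, was 9.06, 8.99 and 9.0 in Top2b-/- cells and 9.65, 9.60 and 9.84 in wild-type cells (difference -0.68 ± 0.16 SE, adjusted p = 0.0212). The electron transfer flavoprotein subunit Etfb was 8.91, 8.88 and 8.90 in Top2b-/- cells and 9.31, 9.27 and 9.41 in wild-type cells (difference -0.43 ± 0.11 SE, adjusted p = 0.0277). Etfdh, which passes the electrons to ubiquinone, was 7.32, 7.21 and 7.31 in Top2b-/- cells and 7.69, 7.90 and 7.95 in wild-type cells (difference -0.57 ± 0.13 SE, adjusted p = 0.0192). These too were lower on every Top2b-/- array. Oxct1, which activates ketone bodies for use, was 8.12, 8.09 and 8.08 in Top2b-/- cells and 8.57, 8.62 and 8.82 in wild-type cells (difference -0.57 ± 0.14 SE, adjusted p = 0.0286). Ucp2 was 1.64, 1.77 and 1.69 in Top2b-/- cells and 0.56, 0.34 and -0.12 in wild-type cells, higher on every Top2b-/- array (difference 1.44 ± 0.29 SE, adjusted p = 0.0115).

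Taken as the 14 members from Cpt2 onward that act inside mitochondria, a grouping made after the values were seen, all 14 had a negative difference, from -0.91 to -0.23 with a median of -0.39, and 7 were called. Decr1, the dienoyl-CoA reductase, was 8.14, 8.02 and 8.17 in Top2b-/- cells and 8.37, 8.47 and 8.57 in wild-type cells, and Hadha, a subunit of the trifunctional protein, 4.89, 4.79 and 4.99 in Top2b-/- cells and 5.07, 5.22 and 5.31 in wild-type cells. Both were lower on every Top2b-/- array without a call (adjusted p = 0.0571 and 0.259). With doxorubicin in wild-type cells at 16 h the same 14 ran from -0.36 to 0.10, with a median of -0.11 and 0 calls.

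**Figure D3:**
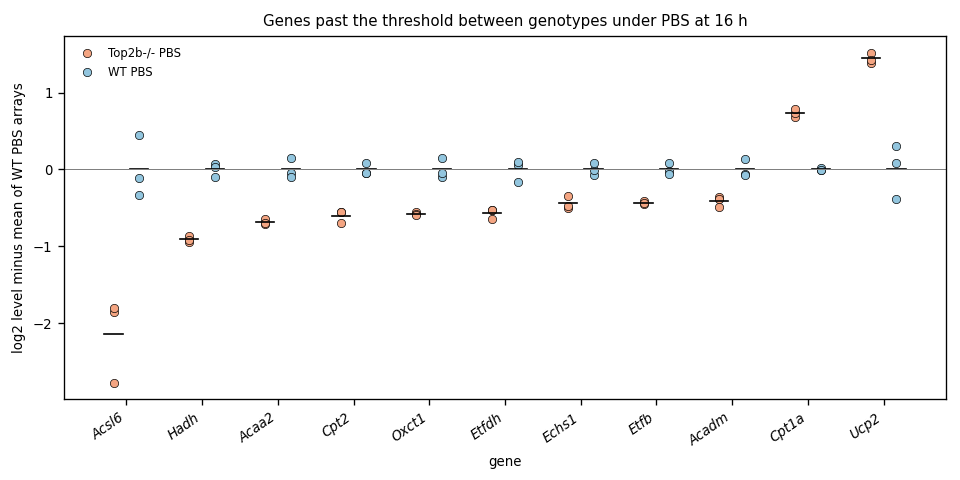
Levels of the 11 genes past the threshold under PBS at 16 h, for the 3 Top2b-/- arrays (left of each pair) and the 3 wild-type arrays (right), as log2 level minus the mean of the wild-type arrays, with bars at the means. Acsl6 has a mean at -2.14 and Ucp2 at 1.44 from the wild-type mean, and no gene shown has overlapping arrays.

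These results changed with the design of the fit. With Y-linked transcripts as a covariate over the 4 groups of 16 h, 4 members were called, against 9.55% of all genes. Acsl6 (-2.40, adjusted p = 0.00696) and the cytosolic thioesterase Acot1 (-2.42, adjusted p = 0.0116) were lower, and Ucp2 (1.91, adjusted p = 0.0165) and Plin2 (1.65, adjusted p = 0.0219) higher. The 14 mitochondrial enzymes had negative differences in that fit too, with a median of -0.45, and 0 were called. Hadh was at -0.78 (adjusted p = 0.0626) and Cpt1a at 0.28 (adjusted p = 0.425). The covariate varied within groups only in the doxorubicin groups, where replicate 1 alone carried the transcripts. Calls gained with it, as for Acot1 and Plin2, therefore cannot be told apart from an effect of those arrays. With slide as a block Acsl6, Hadh and Ucp2 were called, against 6.47% of all genes. Within slide 1, which held all 3 wild-type and 2 Top2b-/- arrays, Acsl6 alone was called. Leaving out any 1 of the 6 PBS arrays left 3 or 4 calls, with Acsl6, Hadh and Ucp2 in every case.

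Cell markers differed between the genotypes under PBS at 16 h as well, where 1260 of all 18750 genes were called higher and 1077 lower. All 10 cardiomyocyte markers had negative differences, 1 of them called, and their summed level ran from 7960 to 8420 in Top2b-/- cells and from 9730 to 10800 in wild-type cells. Of 7 fibroblast markers, 4 were called higher in Top2b-/- cells, with sums of 45.3 to 97.0 against 24.2 to 35.8 in wild-type cells. Of 9 endothelial markers 2 were called lower, with sums of 24.1 to 31.3 in Top2b-/- cells and 32.0 to 45.3 in wild-type cells. The part of these cells in the lower levels of the oxidation enzymes was not tested.

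Over both treatments, which divide the Y-linked transcripts less completely, all 6 Top2b-/- arrays of 16 h lay below all 6 wild-type arrays for 8 members, or 20.0% against 4.65% of all genes. These were Acaa2, Acadm, Acsl6, Decr1, Echs1, Etfb, Hadh and Hadhb. All wild-type arrays of 16 h lay on slide 1. The Top2b-/- doxorubicin arrays and replicate 3 of the Top2b-/- PBS group lay on slide 2. Genotype and slide therefore cannot be fully told apart in this split. Hadh had a median of 6.31 on the Top2b-/- arrays and 7.16 on the wild-type arrays, with a highest Top2b-/- value of 6.60 and a lowest wild-type value of 6.72. Hadhb, the thiolase subunit of the trifunctional protein, had a median of 8.87 on the Top2b-/- arrays and 9.19 on the wild-type arrays, with a highest Top2b-/- value of 9.0 and a lowest wild-type value of 9.04. For Acsl6 the gap was wider, from a highest Top2b-/- value of -1.70 to a lowest wild-type value of -0.48. For 2 members, Cpt1a and the synthetase Acsl4, the Top2b-/- arrays lay wholly above, 5.0% against 6.93% of all genes. At 72 h 2 members lay wholly below, Acsl6 and Bdh1 (5.0% against 2.59%), and 0 wholly above (against 3.25%).

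**Figure D4:**
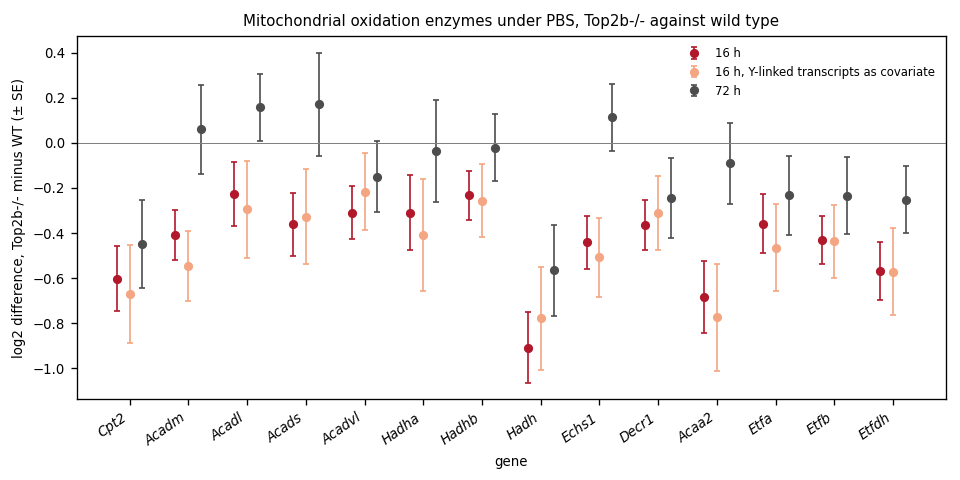
Log2 difference between Top2b-/- and wild-type cells under PBS (with SE) for 14 mitochondrial oxidation enzymes at 16 h, at 16 h with Y-linked transcripts as a covariate, and at 72 h. All 14 values of 16 h lie below 0 in both fits, with medians of -0.39 and -0.45, while those of 72 h have a median of -0.12 and lie on both sides of 0.

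For some members a second probe gave another answer under PBS at 16 h. A second Lpl probe gave -0.76 ± 0.13 (SE, adjusted p = 0.00516 over all probes), while the brighter probe gave 0.12 ± 0.11. At 72 h the second probe gave -0.67 ± 0.17 and the brighter one 0.20 ± 0.18. A second Cpt1b probe gave 0.51 ± 0.13 (adjusted p = 0.0317), against -0.20 ± 0.13 for the brighter one. A second Decr1 probe gave -0.93 ± 0.19 (adjusted p = 0.0112), of the same sign as the brighter probe (-0.36 ± 0.11) and larger. The first 30 bases of the Lpl and Cpt1b probes are shown because each pair differs in sign. The Lpl probes lie at chr8:71430267-71430326 (brighter) and chr8:71425050-71425109 on the plus strand, and the Cpt1b probes at chr15:89246836-89246895 (brighter) and chr15:89247106-89247165 on the minus strand (mm9, from the scanner annotation).
Lpl brighter probe: gaacaccaacccacatgcaaaaccccacaa
Lpl second probe: cgaggtttccacaaataaaacctactcctt
Cpt1b brighter probe: ttggagagcgctgtccaacctctcatgtgc
Cpt1b second probe: tgctcctctagggcccccgctggaggtggg

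Promoters of the called genes were searched for AGGTCA on either strand (TGACCT on the other), the core letters bound by nuclear receptors such as PPAR alpha and ERR alpha. Of the 40 members, 35 matched a RefSeq promoter (GRCm38.p6), and 8 of these (22.9%) held AGGTCA in the 250 bases before the start of at least 1 listed promoter. Of all 32851 promoters, each counted singly, 14% held it. A gene with several listed promoters had more chances to match, so the shares by gene and by promoter are not like for like. Of the 11 genes called between genotypes under PBS at 16 h, 10 matched and 4 held it, and their 250 bases are shown with the motif in capitals. They are Acadm at chr3:153944644-153944893 and Echs1 at chr7:140116422-140116671 on the minus strand, and Acsl6 at chr11:54303574-54303823 and Cpt1a at chr19:3323051-3323300 on the plus strand. The motif begins 249 bases before the start in Acadm, 83 in Echs1, 189 and 167 in 1 of the 3 listed promoters of Acsl6, and 94 in Cpt1a. Acadm, Echs1 and Acsl6 were called lower and Cpt1a higher, so genes with these letters were called in both directions. A match describes letters in this window and no binding.
Acadm: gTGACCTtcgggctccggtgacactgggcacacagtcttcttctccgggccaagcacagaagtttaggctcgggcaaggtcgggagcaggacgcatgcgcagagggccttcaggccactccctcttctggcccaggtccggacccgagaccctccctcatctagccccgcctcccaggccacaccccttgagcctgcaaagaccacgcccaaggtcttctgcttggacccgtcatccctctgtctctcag
Echs1: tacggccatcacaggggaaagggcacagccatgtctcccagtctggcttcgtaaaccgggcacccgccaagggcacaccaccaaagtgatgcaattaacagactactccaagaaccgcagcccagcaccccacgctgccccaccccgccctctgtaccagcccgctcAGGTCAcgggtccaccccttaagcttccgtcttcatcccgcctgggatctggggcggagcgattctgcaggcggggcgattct
Acsl6: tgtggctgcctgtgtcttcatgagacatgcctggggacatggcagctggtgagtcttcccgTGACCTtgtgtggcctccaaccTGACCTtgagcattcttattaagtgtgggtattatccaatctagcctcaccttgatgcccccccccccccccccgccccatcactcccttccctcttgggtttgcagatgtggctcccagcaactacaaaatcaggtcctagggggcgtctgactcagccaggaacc
Cpt1a: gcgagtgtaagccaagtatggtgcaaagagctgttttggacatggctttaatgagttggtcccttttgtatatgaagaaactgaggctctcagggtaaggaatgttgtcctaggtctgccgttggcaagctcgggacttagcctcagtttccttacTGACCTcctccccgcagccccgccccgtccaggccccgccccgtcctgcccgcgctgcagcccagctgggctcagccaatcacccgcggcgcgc

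Between genotypes under PBS at 16 h the wider lists are set against 12.5% of all genes called. Of 24 genes of other oxidation, 11 were lower and 1 higher in Top2b-/- cells (50%), with a median of -0.44. They were led by Ehhadh (-1.63, adjusted p = 3.17e-04), the peroxisomal bifunctional enzyme, and Acad9 (-1.48, adjusted p = 3.80e-04), an acyl-CoA dehydrogenase that also helps to assemble respiratory complex I. With the Y-linked covariate 4 were lower and 0 higher, Ehhadh and Acad9 among them (adjusted p = 0.000998 and 0.00747). Other fatty acid handling had 4 lower and 0 higher of 21 (19%), led by Lmf1 (-0.83, adjusted p = 0.0112) and the triglyceride synthesis enzyme Dgat2 (-1.62, adjusted p = 0.0115). Lipid synthesis had 2 lower of 15 (13.3%), the desaturase Scd4 (-3.51, adjusted p = 0.00905) and Thrsp (-0.74, adjusted p = 0.0189). AMPK and pyruvate dehydrogenase control had 2 in each direction of 13 (30.8%), led by Pdp2 (-2.03, adjusted p = 0.00187) and Pdk3 (1.41, adjusted p = 0.0127), a phosphatase and a kinase that oppose each other on pyruvate dehydrogenase. Of 15 regulators Sirt3 alone (6.67%) was called (-0.49, adjusted p = 0.018). With the Y-linked covariate Lmf1 was at -0.79 (adjusted p = 0.0803), Dgat2 at -0.98 (adjusted p = 0.167), Thrsp at -0.87 (adjusted p = 0.0558) and Sirt3 at -0.37 (adjusted p = 0.17), all without a call, while Scd4, Pdp2 and Pdk3 were called. Dgat2, Thrsp and Sirt3 also lost the call on leaving out certain arrays, in 1, 3 and 4 of 12 cases. In that covariate fit the called regulators were Rxrg, Ppard and Ppara, named after their values were seen. They were at -1.69, -0.59 and -1.37 (adjusted p = 0.0112, 0.0263 and 0.0399). The covariate cannot be told apart from replicate 1 of the doxorubicin groups, so these calls may rest on those arrays.

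Uptake and binding genes carried no call at 16 h by their brightest probes. Cd36, the fatty acid transporter of the cell surface, was 5.76, 6.16 and 6.02 with doxorubicin and 5.79, 5.72 and 5.73 with PBS in Top2b-/- cells, and 6.04, 5.74 and 5.84 with doxorubicin and 5.76, 5.84 and 6.12 with PBS in wild-type cells. Fabp3, the fatty acid binding protein of the heart cytosol, was 9.88, 9.82 and 9.74 with doxorubicin and 9.74, 9.92 and 9.71 with PBS in Top2b-/- cells, and 10.28, 10.14 and 9.80 with doxorubicin and 10.17, 10.05 and 10.27 with PBS in wild-type cells. Cd36 overlapped in each comparison, while Fabp3 under PBS was lower on every Top2b-/- array (difference -0.37 ± 0.14 SE, adjusted p = 0.102). Lpl, lipoprotein lipase, was 9.51, 9.64 and 9.54 with doxorubicin and 9.52, 9.44 and 9.41 with PBS in Top2b-/- cells, and 9.36, 9.63 and 9.57 with doxorubicin and 9.29, 9.26 and 9.45 with PBS in wild-type cells. Angptl4, a secreted inhibitor of lipoprotein lipase, was 3.25, 3.80 and 3.21 with doxorubicin and 5.52, 3.81 and 3.84 with PBS in Top2b-/- cells, and 6.43, 5.54 and 3.17 with doxorubicin and 3.02, 5.61 and 4.63 with PBS in wild-type cells. Lpl overlapped in each comparison by its brighter probe, while its second probe, described above, was called lower in Top2b-/- cells under PBS. Angptl4 was lower on every doxorubicin array of Top2b-/- cells (difference -0.97 ± 0.85 SE, adjusted p = 1), and in wild-type cells each group spanned more than the difference of its means.

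Of the entry genes at 16 h, Cpt1a in the doxorubicin groups was 2.29, 2.34 and 2.51 in Top2b-/- cells and 1.13, 1.87 and 1.96 in wild-type cells. In wild-type cells replicates 2 and 3 lay above the PBS arrays and replicate 1 below them, and in Top2b-/- cells all lay above (differences 0.19 ± 0.19 and 0.18 ± 0.19 SE). Cpt1b, the muscle palmitoyltransferase, was 5.54, 5.71 and 5.87 with doxorubicin and 5.62, 5.48 and 5.69 with PBS in Top2b-/- cells, and 5.64, 5.66 and 5.51 with doxorubicin and 5.62, 5.83 and 5.95 with PBS in wild-type cells. Mlycd, malonyl-CoA decarboxylase, was 6.33, 6.66 and 6.65 with doxorubicin and 6.41, 6.26 and 6.53 with PBS in Top2b-/- cells, and 6.19, 6.19 and 6.95 with doxorubicin and 6.69, 6.94 and 7.01 with PBS in wild-type cells. Cpt1b overlapped in each comparison by its brighter probe. Mlycd under PBS was lower on every Top2b-/- array (difference -0.48 ± 0.21 SE, adjusted p = 0.154). Acadm in the doxorubicin groups was 8.38, 8.67 and 8.56 in Top2b-/- cells and 8.80, 8.87 and 8.81 in wild-type cells, and Hadha 4.70, 5.11 and 5.34 in Top2b-/- cells and 5.34, 5.04 and 4.99 in wild-type cells. Both overlapped with the PBS arrays of their genotype.

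The other fuel switch and lipid droplet genes carried no call at 16 h. Pdk4, a kinase that shuts pyruvate dehydrogenase and so favours fat over glucose, was 6.80, 7.23 and 6.42 with doxorubicin and 8.14, 6.71 and 7.16 with PBS in Top2b-/- cells, and 8.69, 8.09 and 7.98 with doxorubicin and 6.59, 8.07 and 7.35 with PBS in wild-type cells. Ucp3, the uncoupling protein of muscle, was 1.86, 2.32 and 1.53 with doxorubicin and 2.56, 2.42 and 2.44 with PBS in Top2b-/- cells, and 2.88, 2.10 and 2.08 with doxorubicin and 1.74, 2.29 and 1.75 with PBS in wild-type cells. Pdk4 overlapped in each comparison, and Ucp3 was lower on every Top2b-/- doxorubicin array than on the PBS arrays (difference -0.57 ± 0.26 SE, adjusted p = 1). Plin2, which coats lipid droplets, was 4.52, 4.69 and 4.51 with doxorubicin and 4.80, 4.55 and 4.66 with PBS in Top2b-/- cells, and 4.89, 3.43 and 3.70 with doxorubicin and 3.50, 3.69 and 3.75 with PBS in wild-type cells. Pnpla2, the adipose triglyceride lipase, was 6.72, 6.71 and 6.82 with doxorubicin and 6.55, 6.43 and 6.56 with PBS in Top2b-/- cells, and 7.79, 6.75 and 7.14 with doxorubicin and 6.59, 6.76 and 6.95 with PBS in wild-type cells. For Plin2 the Top2b-/- arrays under PBS lay wholly above the wild-type arrays, just outside the threshold (difference 1.02 ± 0.30 SE, adjusted p = 0.0501). Under PBS the Top2b-/- arrays also lay wholly above the wild-type arrays for Ucp3 and wholly below them for Pnpla2, without a call. For Plin2 and Pnpla2 replicate 1 of the wild-type doxorubicin group gave the highest value of all arrays of 16 h. Pnpla2 passed in wild-type cells with the Y-linked covariate (difference 0.73 ± 0.24 SE, adjusted p = 0.0437). That covariate cannot be told apart from replicate 1 of the doxorubicin groups.

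At 72 h, doxorubicin in wild-type cells called 0 of the 40 members, against 2.54% of 19669 genes by limma (0.93% higher and 1.61% lower), with 12 of 40 members and 4717 genes (24%) at an unadjusted p under 0.05. The members' median difference was 0.01, against -0.07 over all genes. The groups did not overlap for 10 members above and 5 below, 25.0% and 12.5%, against 9.19% and 16.4% of all genes. Slides 3 and 4 each held all 4 groups, and with slide as a block 2 members were called higher (Plin2 and Acaca) and 2 lower (Hadh and Oxct1), against 13.0% of all genes. With replicate number as a block 7 were called, against 15.9% of all genes. These were Acsl3, Plin2 and Acaca above and Hadh, Oxct1, Acaa1a and Acsl1 below. At 72 h the number runs with slide, as every replicate 4 array lies on slide 4 and the others on slide 3.

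Hadh was 6.67, 6.05 and 6.46 with doxorubicin and 7.47, 7.20 and 6.81 with PBS in wild-type cells at 72 h, every doxorubicin array below every PBS array. Its difference was -0.77 ± 0.20 (SE), adjusted p = 0.067 (adjusted p = 0.036 with the slide block). Oxct1 was 7.58, 6.53 and 7.50 with doxorubicin and 8.40, 8.10 and 8.05 with PBS, again without overlap (difference -0.98 ± 0.26 SE, adjusted p = 0.068, or 0.0386 with the block). Its lowest value came from replicate 3, on which 12 of 40 members lay over 1 unit from the PBS mean, against 3 of 40 and 2 of 39 on the other doxorubicin arrays. Plin2 was 3.97, 5.32 and 4.03 with doxorubicin and 3.19, 3.33 and 3.45 with PBS, higher on every doxorubicin array (difference 1.12 ± 0.32 SE, adjusted p = 0.076, or 0.0495 with the block). Acaca, the cytosolic acetyl-CoA carboxylase, was 1.19, 1.86 and 1.40 with doxorubicin and 0.91, 0.91 and 0.80 with PBS, likewise higher (difference 0.61 ± 0.20 SE, adjusted p = 0.106, or 0.0469 with the block). Without replicate 2 of the doxorubicin group Oxct1, Hadh and Plin2 were called without a block, and without replicate 4 of the wild-type PBS group Hadh alone. Within slide 3 Pdk4 alone was called.

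In Top2b-/- cells at 72 h doxorubicin called 0 members, and limma 0 of 19669 genes (0.0%), with 426 genes (2.17%) at an unadjusted p under 0.05, 0 of them members. The members' differences ran from -0.44 to 0.66 with a median of -0.01, against -0.01 over all genes. The groups did not overlap for 1 member above and 2 below, 2.5% and 5.0%, against 2.87% and 4.22% of all genes. Hadh was 6.63, 6.31 and 6.40 with doxorubicin and 6.67, 6.56 and 6.56 with PBS, with overlap. Oxct1 was 7.43, 7.86 and 7.87 with doxorubicin and 7.99, 7.89 and 8.15 with PBS, every doxorubicin array lower (-0.29 ± 0.26 SE). Plin2 was 4.40, 3.98 and 3.98 with doxorubicin and 3.48, 3.73 and 3.93 with PBS, every doxorubicin array higher (0.41 ± 0.32 SE). Neither was called.

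**Figure D5:**
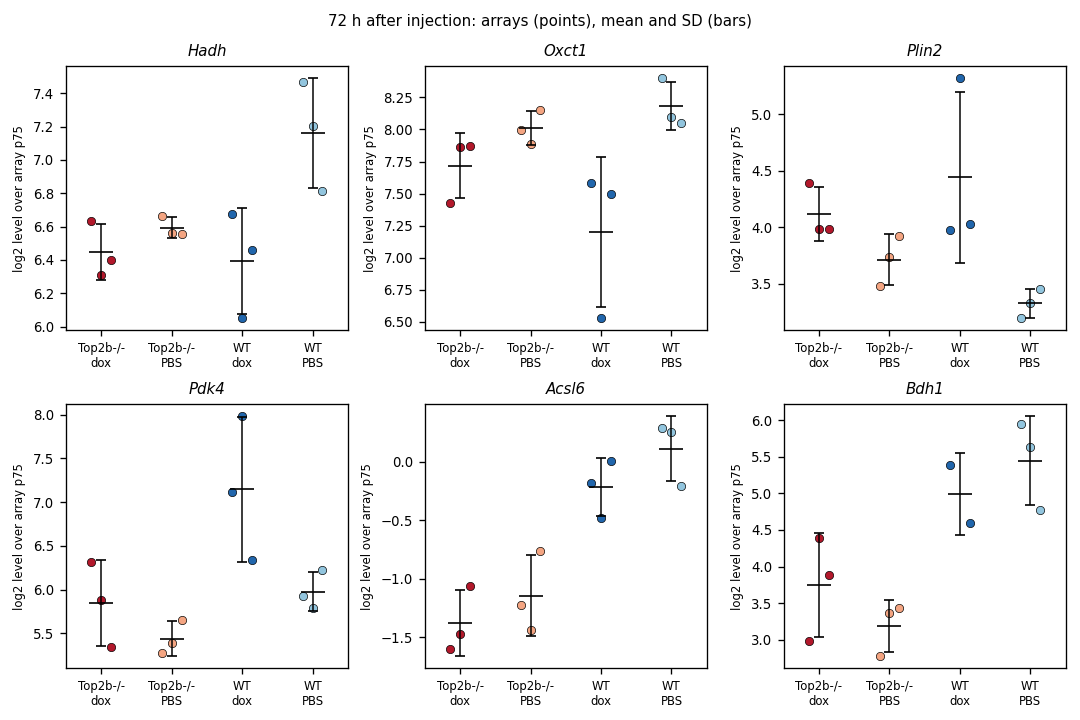
Levels (log2 over the array's 75th percentile) of 6 genes on the arrays of the 4 groups of 72 h, with mean and SD. Wild-type doxorubicin arrays lie below wild-type PBS arrays for Hadh and Oxct1 and above them for Plin2 and Pdk4, and Top2b-/- PBS arrays lie below wild-type PBS arrays for Acsl6 and Bdh1.

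The test of the difference between the responses at 72 h called 0 members, and limma 0 of 19669 genes (0.0%), with 1349 genes (6.86%) at an unadjusted p under 0.05, 1 of them a member. That member, named after its value was seen, was the synthetase Acsl3, at -2.50, -2.77 and -2.64 with doxorubicin and -1.71, -2.11 and -2.78 with PBS in Top2b-/- cells, and -1.52, -2.0 and -1.72 with doxorubicin and -2.61, -2.72 and -2.37 with PBS in wild-type cells. Its wild-type groups lay apart and its Top2b-/- groups overlapped, and the responses differed by -1.26 ± 0.35 (SE), adjusted p = 0.703.

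Between genotypes under PBS at 72 h, 2 members were lower and 0 higher in Top2b-/- cells, 5.0% of the members against 2.13% of all genes (1.05% higher and 1.07% lower). The members' median was -0.14, against -0.01 over all genes. The arrays did not overlap for 5 members above (12.5% against 11.2% of all genes) and 8 below (20.0% against 8.39%). Bdh1, the mitochondrial dehydrogenase that interconverts the ketone bodies acetoacetate and hydroxybutyrate, was 2.78, 3.36 and 3.43 in Top2b-/- cells and 5.94, 5.63 and 4.77 in wild-type cells. Every Top2b-/- array lay below every wild-type array, and the difference was -2.25 ± 0.42 (SE), adjusted p = 0.0246, or 0.21 times the wild-type level. All 3 Bdh1 probes gave negative differences, from -2.29 to -1.80. At 16 h Bdh1 was 4.47, 4.79 and 4.53 in Top2b-/- cells and 4.40, 4.48 and 4.63 in wild-type cells under PBS, with overlap (0.09 ± 0.36 SE). The brightest Bdh1 probe has no value on replicate 4 of the wild-type doxorubicin group at 72 h, where its spot was an outlier. Acsl6 was -1.23, -1.44 and -0.76 in Top2b-/- cells and 0.29, 0.25 and -0.21 in wild-type cells, again lower on every Top2b-/- array (difference -1.25 ± 0.23 SE, adjusted p = 0.0192). A second Acsl6 probe gave -1.12 ± 0.41 (SE, adjusted p = 0.251 over all probes), so the brighter probe alone was called. Bdh1 and Acsl6 were both called with slide as a block and with the Y-linked covariate. Leaving out replicate 2 or 3 of either PBS group left 0 calls, and leaving out replicate 4 of the Top2b-/- PBS group left Acsl6 alone.

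Of the oxidation enzymes under PBS at 72 h, Hadh was 6.67, 6.56 and 6.56 in Top2b-/- cells and 7.47, 7.20 and 6.81 in wild-type cells (difference -0.57 ± 0.20 SE, adjusted p = 0.241). Cpt2 was 6.41, 6.49 and 6.08 in Top2b-/- cells and 7.05, 6.69 and 6.59 in wild-type cells (difference -0.45 ± 0.20 SE, adjusted p = 0.373). Both were lower on every Top2b-/- array without a call. The 14 mitochondrial enzymes had 10 negative and 4 positive differences, with a median of -0.12. Whether the genotype difference itself changed between the times was not tested.

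The fuel switch genes carried no call at 72 h over both slides. Pdk4 was 6.32, 5.88 and 5.34 with doxorubicin and 5.27, 5.38 and 5.66 with PBS in Top2b-/- cells, and 7.12, 7.98 and 6.33 with doxorubicin and 5.92, 5.78 and 6.22 with PBS in wild-type cells. Ucp3 was 0.89, 1.22 and 1.14 with doxorubicin and 0.61, 1.33 and 1.29 with PBS in Top2b-/- cells, and 1.32, 2.91 and 1.20 with doxorubicin and 1.18, 1.40 and 1.90 with PBS in wild-type cells. In wild-type cells Pdk4 did not overlap between treatments (difference 1.17 ± 0.37 SE, adjusted p = 0.0992), while Ucp3 did, and under PBS Pdk4 was lower on every Top2b-/- array (adjusted p = 0.649). Ucp2 was -0.21, -0.28 and 0.37 with doxorubicin and -0.49, 0.24 and 0.38 with PBS in Top2b-/- cells, and -0.60, 1.74 and 0.62 with doxorubicin and -0.78, -0.02 and 0.77 with PBS in wild-type cells. Acot1 was 5.11, 1.75 and 0.96 with doxorubicin and 2.31, 2.70 and 1.13 with PBS in Top2b-/- cells, and 4.36, 5.53 and 4.22 with doxorubicin and 3.02, 2.74 and 3.34 with PBS in wild-type cells. Ucp2 overlapped between genotypes under PBS, and Acot1 was higher on every doxorubicin array of wild-type cells (difference 1.67 ± 0.89 SE, adjusted p = 0.282). Replicate 2 of the Top2b-/- doxorubicin group stood apart from the other arrays of its group for Acot1. It did so too for the transport protein Slc27a1, at 4.68 against 3.73 and 3.19 on the other Top2b-/- doxorubicin arrays. Without that array the Top2b-/- groups still gave 0 calls.

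Uptake and lipid droplet genes at 72 h were followed in the same way. Cd36 was 5.59, 4.85 and 5.37 with doxorubicin and 4.99, 5.28 and 5.38 with PBS in Top2b-/- cells, and 5.74, 6.10 and 6.23 with doxorubicin and 5.63, 5.32 and 5.68 with PBS in wild-type cells. Pnpla2 was 7.54, 6.60 and 6.13 with doxorubicin and 6.42, 6.62 and 6.24 with PBS in Top2b-/- cells, and 7.0, 7.44 and 6.91 with doxorubicin and 6.42, 6.41 and 6.50 with PBS in wild-type cells. Both were higher on every doxorubicin array of wild-type cells and overlapped in Top2b-/- cells, without a call (adjusted p = 0.212 and 0.209 in wild-type cells). Fabp3 was 10.04, 10.21 and 10.05 with doxorubicin and 10.04, 10.06 and 10.21 with PBS in Top2b-/- cells, and 10.21, 10.0 and 10.39 with doxorubicin and 10.42, 10.64 and 9.88 with PBS in wild-type cells. Lpl was 9.78, 9.24 and 9.26 with doxorubicin and 9.25, 9.28 and 9.38 with PBS in Top2b-/- cells, and 9.24, 8.92 and 9.17 with doxorubicin and 9.31, 9.12 and 8.89 with PBS in wild-type cells. Both overlapped between treatments and, under PBS, between genotypes. Angptl4 was 1.62, 1.61 and 0.18 with doxorubicin and 0.05, 0.78 and 0.62 with PBS in Top2b-/- cells, and 2.55, 5.06 and 1.46 with doxorubicin and 2.25, 2.03 and 1.59 with PBS in wild-type cells. It overlapped between treatments, with its highest value on replicate 3 of the wild-type doxorubicin group, and under PBS was lower on every Top2b-/- array (difference -1.48 ± 0.75 SE, adjusted p = 0.479). Plin2 under PBS was 3.48, 3.73 and 3.93 in Top2b-/- cells and 3.19, 3.33 and 3.45 in wild-type cells, higher on every Top2b-/- array without a call (adjusted p = 0.725).

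Entry and cycle genes at 72 h overlapped in most comparisons. Cpt1a was 2.14, 1.37 and 1.65 with doxorubicin and 1.44, 1.80 and 1.66 with PBS in Top2b-/- cells, and 1.96, 2.57 and 1.63 with doxorubicin and 0.99, 0.87 and 1.58 with PBS in wild-type cells. It was higher on every doxorubicin array of wild-type cells (difference 0.91 ± 0.29 SE, adjusted p = 0.0978). Cpt1b was 6.0, 5.65 and 5.27 with doxorubicin and 5.76, 5.71 and 5.47 with PBS in Top2b-/- cells, and 6.11, 6.03 and 5.84 with doxorubicin and 6.11, 6.16 and 5.65 with PBS in wild-type cells. Mlycd was 6.69, 5.80 and 5.52 with doxorubicin and 6.21, 6.05 and 5.68 with PBS in Top2b-/- cells, and 6.84, 6.39 and 5.99 with doxorubicin and 6.54, 6.08 and 6.10 with PBS in wild-type cells. Both overlapped between treatments and, under PBS, between genotypes. Acadm was 8.43, 8.08 and 8.39 with doxorubicin and 8.41, 8.33 and 8.65 with PBS in Top2b-/- cells, and 8.29, 7.87 and 8.62 with doxorubicin and 8.45, 8.26 and 8.51 with PBS in wild-type cells. Hadha was 5.19, 4.94 and 4.51 with doxorubicin and 4.93, 5.12 and 4.60 with PBS in Top2b-/- cells, and 5.10, 5.27 and 4.65 with doxorubicin and 4.87, 5.09 and 4.79 with PBS in wild-type cells. These overlapped in the same comparisons.

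Pnpla3, called at 16 h, was -3.32, -2.67 and -2.42 with doxorubicin and -2.49, -2.70 and -2.32 with PBS in Top2b-/- cells, and -3.04, -3.68 and -2.79 with doxorubicin and -3.50, -3.37 and -2.84 with PBS in wild-type cells at 72 h. Its wild-type groups overlapped, and it was well above background on 1 of 3 wild-type PBS arrays. Under PBS it was higher on every Top2b-/- array (adjusted p = 0.311). Its wild-type doxorubicin response at 72 h minus that at 16 h was -3.88 ± 0.86 (SE), adjusted p = 0.0123, and it was the 1 member called in that test (2.5%), against 5.95% of 18363 genes (3.66% lower). Without replicate 1 of the wild-type doxorubicin group at 16 h that value was -2.81 (adjusted p = 0.00619), and Bdh1 was called too (-1.97, adjusted p = 0.0402). Without replicate 3 of the same group Acaca and Hadh were called beside Pnpla3, and without replicate 4 of the wild-type PBS group at 72 h Hadh was. In Top2b-/- cells the test between times called 0 members and 0 of 18363 genes by limma (0.0%), with 555 genes (3.02%) at an unadjusted p under 0.05, 0 of them members. Each time has its own slides. A constant slide difference cancels in the wild-type test, since both treatments lay alike on the same slides. For the Top2b-/- test it does not, as the treatments of 16 h were split unequally over slides. A response that varies with slide cannot be told apart from one that varies with time.

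Over the 10 comparisons, 15 members were called at least once and 25 never. Of the uncalled ones not yet described, the acyl-CoA dehydrogenases Acadvl, Acadl and Acads, for very long, long and short chains, differed under PBS at 16 h by -0.31 ± 0.12, -0.23 ± 0.14 and -0.36 ± 0.14 (SE) in Top2b-/- against wild-type cells. The flavoprotein subunit Etfa differed by -0.36 ± 0.13 and the peroxisomal thiolase Acaa1a by -0.26 ± 0.10. Of these 5, Acadvl, Etfa and Acaa1a were lower on every Top2b-/- array, and the others overlapped. The synthetases Acsl3, Acsl4 and Acsl5 had positive differences there, of 0.14 ± 0.27, 0.24 ± 0.20 and 0.38 ± 0.29. Acot2, a mitochondrial thioesterase, and Slc27a1 stood at 0.33 ± 0.21 and 0.15 ± 0.10 with doxorubicin in wild-type cells at 16 h, and at 0.77 ± 0.40 and 0.83 ± 0.35 at 72 h, where both were higher on every doxorubicin array. None of these values passed the threshold.

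Around the members at 72 h, 3 of 15 regulators (20%) were lower with doxorubicin in wild-type cells, against 2.54% of all genes called (1.61% lower), led by Rxrg, a retinoid X receptor (-0.99, adjusted p = 0.0366), and Ppara. Ppara was 4.02, 3.64 and 4.03 with doxorubicin and 5.12, 4.94 and 4.58 with PBS, every doxorubicin array lower (-0.98, adjusted p = 0.044). Other oxidation had 1 lower of 24 (4.17%), Hsd17b4 (-0.61, adjusted p = 0.0469), and other handling 2 lower of 21 (9.52%), Lmf1 (-1.04, adjusted p = 0.0317) and Lpin1 (-1.0, adjusted p = 0.0399). Each of these 5 genes lost the call on leaving out certain arrays, in 7 to 9 of 12 cases. With the Y-linked covariate none of these lists had a call in this comparison, against 0.0559% of all genes.

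Some cell markers were called in the same comparison, where 183 of all 19669 genes were called higher and 316 lower. Of 5 measured neutrophil markers of 7, 3 were called higher, with sums of 130.0 to 230.0 with doxorubicin and 104.0 to 247.0 with PBS, and Mmp8 and Cxcr2 were not above background. All 10 cardiomyocyte markers had negative differences and 0 were called, with sums of 5960 to 8880 with doxorubicin and 8110 to 12200 with PBS. Of 9 endothelial markers 8 had positive differences and 0 were called, with sums of 50.2 to 84.7 with doxorubicin and 28.7 to 69.4 with PBS. The 2 measured adipocyte markers of 7 summed to 88.1 to 210.0 with doxorubicin and 23.9 to 128.0 with PBS, with Adipoq, Plin1, Cidec, Cfd and Lep not above background. For each of these cell types the sums overlapped between treatments. The part of these cells in the members' values was not tested.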

How the data were processed

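Expression was measured in isolated mouse cardiomyocytes on 24 one-colour arrays, in 8 groups of 3 by genotype, treatment and time. Per the labels' protocols, each array received Cy3-labelled RNA amplified from 100 ng. Per the file headers, the deposited files hold Agilent Feature Extraction 10.7.3.1 output with mm9 probe positions, in which the processed signal is a background-subtracted spot intensity. The authors' deposited value table holds the same signals as linear ratios, with each array's median at 1.0, and served as an alternative.

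From these intensities log2 values were computed and each array's 75th percentile over non-control spots was subtracted, control and outlier spots being left out. Spots of a probe were averaged, of 59305 spots and 55681 probes. A probe was kept at a time when all 3 arrays of some group had it well above background, and the brightest kept probe stood for its gene. Of all spots, 42.9% to 52.6% were well above background on an array and 0 were saturated; the number of arrays limits the precision.

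limma 3.58.1 in R 4.3.3 fitted the 4 groups of a time together (8 residual degrees of freedom), and the 8 groups for contrasts between times, with Benjamini-Hochberg adjustment over all genes and a threshold of 0.05. The procedure was tested on simulated data. Alternatives covered background correction, normalization, the filter, the probe rule, slide, replicate number, Y-linked transcripts, the other genotype label and each array left out. The fit on the arrays without Y-linked transcripts was added after seeing the data. By rule, genes named with all values were the members called in a comparison (at most 8, by adjusted p) and 14 members listed by name, and of the other lists the 2 called genes with the smallest adjusted p. Outside this rule, values by array were also given for Echs1, Decr1, Acaca, Acot1, Acsl3 and Slc27a1. Some called members, such as Hadh and Oxct1, were also followed into comparisons that did not call them. These additions do not follow from the rule. The members and lists were chosen with earlier results of these data known. Promoters came from RefSeq, and motifs were counted on both strands. Replicate numbers were checked for pairing by correlating deviations from the group means. Every same-numbered pair exceeded 0.1 in both Top2b-/- doxorubicin comparisons and between genotypes under PBS at 72 h, so the numbers may pair those arrays. The main fit used no pairing, and replicate number entered only as an alternative block. At 72 h replicates 2 and 3, on the same slide, also correlated across numbers. These values were 0.19 and 0.33 between treatments in Top2b-/- cells and 0.25 both ways between genotypes under PBS. Pairing and slide therefore cannot be told apart there.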

Additional observations from a re-analysis of the deposited data

Results flagged for a closer look

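At 16 h the doxorubicin response differed between genotypes for Acacb, by 1.22 on the log2 scale as Top2b-/- minus wild type (adjusted p = 0.0238 by limma), and for Ucp2, by -1.57 (adjusted p = 0.0357). For Pnpla3 the wild-type response differed between times, by -3.88 as 72 h minus 16 h (adjusted p = 0.0123). Each was singled out because the test of the difference itself passed the threshold. The 16 h differences were not called with slide as a block. The times lie on different slides, and only a constant slide difference cancels in the Pnpla3 test. The Pnpla3 value comes from its brighter probe, which at 72 h was well above background on 1 of 3 wild-type PBS arrays. Its other probe did not call the wild-type rise at 16 h.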

How the results depend on the processing

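Counts of members called moved as follows, and the cause was not tested. For doxorubicin in wild-type cells at 16 h, 4 calls became 0 with the other genotype label and ranged from 2 to 10 with 1 array left out. For Top2b-/- against wild type under PBS at 16 h, 11 became 6 on the deposited value table, 3 with no filter on dim probes, 3 with the slide block, 7 with the replicate block, 4 with the Y-linked covariate, 1 within slide 1 and 0 with the other genotype label, where the median was -0.0042, and ranged from 3 to 15 with 1 array left out. For the response difference at 16 h, 2 became 0 with no filter, with the slide block and with the other genotype label, under which Ucp2 reversed to 0.22, and ranged from 0 to 6. For doxorubicin in wild-type cells at 72 h, 0 became 1 on the value table, 4 with the slide block, 7 with the replicate block and 1 within slide 3, and ranged from 0 to 3. For the genotypes under PBS at 72 h, 2 became 1 with no filter, with the mean of probes and on arrays without Y-linked transcripts, and ranged from 0 to 2. For the wild-type response between times, 1 became 0 under the stricter filter, which left the Pnpla3 probe untested, and with the other genotype label, and ranged from 1 to 3. The other comparisons stayed at 0 throughout. With 1 array left out a lone pair stands for its group, and within slide 4 there was no spread to test.

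Same-numbered arrays correlated over 0.1 in 6 of 18 pairs of groups' replicates at 16 h (-0.12 to 0.29) and in 16 of 18 at 72 h (0.00 to 0.73). In the comparisons where every pair did so the replicate block changed no call. Of the 2 counts above that it moved, the arrays of 16 h share only a number, while at 72 h the number runs with slide. Of single genes, 171 values kept side and direction under alternatives other than leaving out an array, 80 lost the call, 9 gained it, 1 reversed and 5, within slide 4 where there was no test, kept their sign and shrank by over 1 SE; on leaving out an array 215 kept both, 81 lost the call and 4 gained it. With 3 arrays a group, small differences could not be called.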
